A study of Rattus norvegicus with 66 samples.

Results

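The 9 genes described here encode the subunits of the AMPA receptors (Gria1, Gria2, Gria3 and Gria4) and of the kainate receptors (Grik1, Grik2, Grik3, Grik4 and Grik5). They were taken by symbol, 1 row each, from the 37777 rows of the gene count files. RNA sequencing was performed on the dorsal hippocampus, with a small part of the laterally adjacent neocortex, of 64 Long Evans rat pups at postnatal day 6. Dams were exposed from before mating until that day, through the chow, to Aroclor 1254, a mixture of polychlorinated biphenyls, or to bisphenol A, or were injected subcutaneously with the insecticide chlorpyrifos in pregnancy and again in lactation. Male pups came from feeding controls (CONF, 4 pups), injection controls (CONSC, 5), Aroclor 1254 at 5 mg/kg (Aro5, 6) and 0.5 mg/kg (Aro0.5, 4), bisphenol A at 5 mg/kg (BPA5, 7) and 0.5 mg/kg (BPA0.5, 4), and chlorpyrifos at 3 mg/kg (CPF3, 7) and 1 mg/kg (CPF1, 4). Female pups of the same study came from CONF (5), CONSC (5), Aro5 (5), BPA5 (4) and CPF3 (4). As in the study, CONF and CONSC pups of a sex were combined as controls. The sample descriptions give saline as the injection vehicle and the study's methods give DMSO.

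AMPA receptors are glutamate-gated cation channels built from 4 subunits, and they carry most of the fast excitatory current of the brain. The GluA2 subunit, encoded by Gria2, makes the channel nearly impermeable to calcium once its RNA has been edited, so the ratio of Gria2 to the other subunits is a much studied feature of the young hippocampus. Kainate receptors combine the subunits GluK1 to GluK3 (Grik1 to Grik3), which can form channels by themselves, with GluK4 and GluK5 (Grik4 and Grik5), which need such a partner and raise its affinity for glutamate. They sit on both sides of the synapse and are known for their role at the mossy fibre synapses onto CA3 pyramidal cells.

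The promoters of 3 kainate subunit genes, Grik5, Grik3 and Grik2, are shown, so that the sequence at which their transcription starts can be set beside their levels. RefSeq's promoter table for the assembly GRCr8 held 6 of the 9 genes, with Gria1, Gria2 and Gria3 missing. The windows of Gria4, Grik1 and Grik4 were searched but are not shown. The 250 bases before the start of each gene are given on the gene's strand, for Grik5 at chr1:89794910-89795159 on the minus strand, for Grik3 at chr5:143052192-143052441 on the plus strand and for Grik2 at chr20:54415284-54415533 on the minus strand. Capitals mark matches, on either strand, to the GC box GGGCGG or to GCGTG, the core of the dioxin response element bound by the aryl hydrocarbon receptor.
Grik5: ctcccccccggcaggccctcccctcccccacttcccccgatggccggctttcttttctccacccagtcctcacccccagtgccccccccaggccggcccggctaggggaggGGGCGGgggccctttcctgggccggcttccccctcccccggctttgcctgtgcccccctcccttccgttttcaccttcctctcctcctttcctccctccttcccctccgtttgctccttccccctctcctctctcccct
Grik3: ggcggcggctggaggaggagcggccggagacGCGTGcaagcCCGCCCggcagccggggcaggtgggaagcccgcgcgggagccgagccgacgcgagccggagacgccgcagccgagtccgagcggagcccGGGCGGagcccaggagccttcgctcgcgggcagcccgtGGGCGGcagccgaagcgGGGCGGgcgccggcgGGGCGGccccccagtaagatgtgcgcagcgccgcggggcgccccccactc
Grik2: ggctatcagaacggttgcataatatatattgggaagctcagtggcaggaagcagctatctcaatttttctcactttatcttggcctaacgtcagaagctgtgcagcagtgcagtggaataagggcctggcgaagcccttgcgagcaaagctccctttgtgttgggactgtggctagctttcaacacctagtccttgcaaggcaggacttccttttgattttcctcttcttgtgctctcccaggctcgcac
The Grik3 window held 5 GC boxes, 1 dioxin response element core and 41 CpG dinucleotides, with a GC content of 81.6%. The Grik5 window held 1 GC box and 10 CpG dinucleotides at a GC content of 70.8%. The Grik2 window matched neither motif and had 5 CpG dinucleotides and a GC content of 49.6%, near the median of 51.2% over all 33469 promoters. Of all promoters in windows of this length, 30.5% held the GC box and 25.9% the dioxin response element core. The core AGGTCA of the estrogen response element (14.1% of all promoters), and the TATA box TATAAA (12.9%) were searched too and were found in none of the 6 windows.

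All 9 subunit genes were expressed in every pup. Levels are given in counts scaled to a library total of 1000000 (CPM), which compare pups for 1 gene but not genes with each other, because transcript length was not taken into account. Over the 13 groups, the mean of Gria2 ranged from 259 CPM in CPF3 females to 434 CPM in Aro5 males, and that of Grik5 from 138 CPM in BPA0.5 males to 275 CPM in CPF3 females. The highest group mean was 1.99 times the lowest for Grik5, 1.68 times for Gria2, 1.57 times for Grik2 and 1.48 times for Grik4, and 1.19 to 1.38 times for the other 5 genes. When the 13 groups were put in order of their mean, neighbouring groups were closer to each other than the larger of their SDs in all 12 steps for 8 genes. The exception was Grik5, with 1 larger step, from 185 ± 44.6 CPM (SD, n = 7) in CPF3 males to 245 ± 15.8 CPM (SD, n = 5) in CONF females. All 5 female groups stood above that step and all 8 male groups below it.

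**Figure D1:**
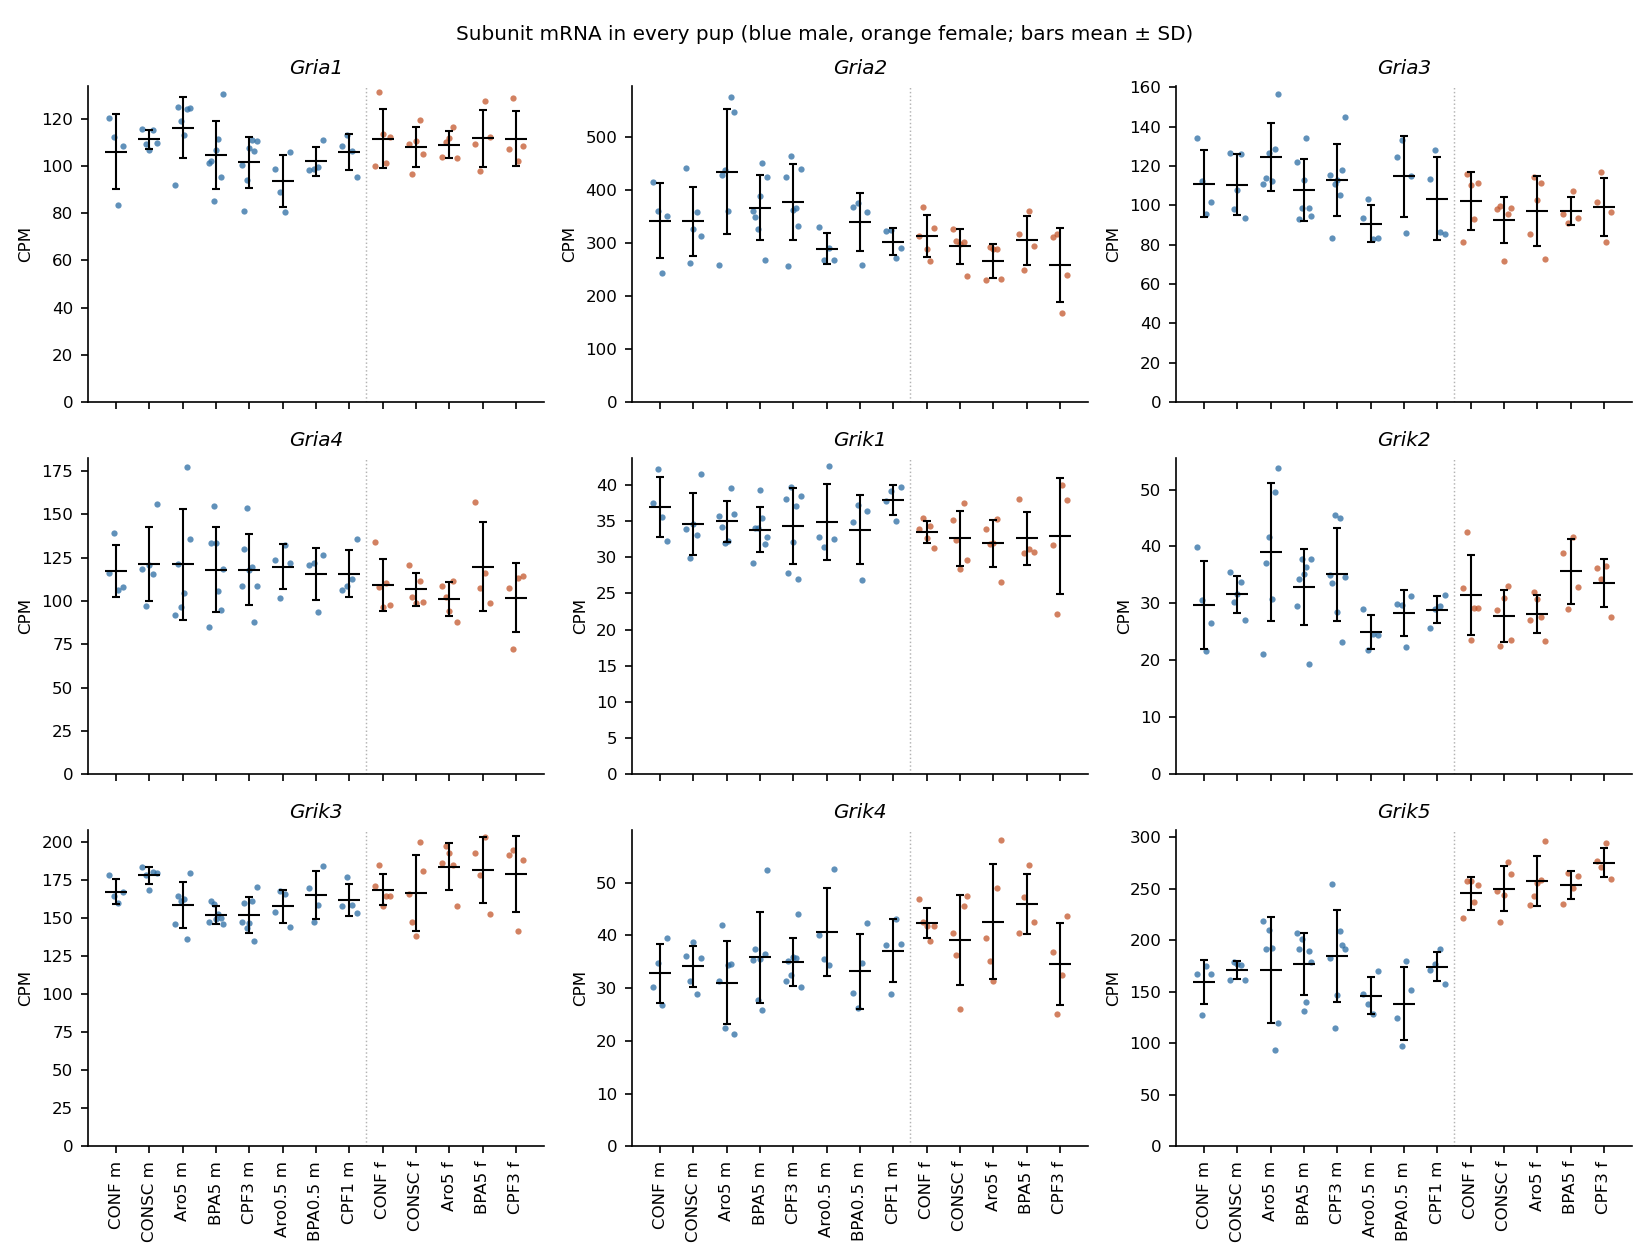
Each panel shows 1 subunit gene, with CPM on a linear axis from 0 and the 13 groups along the horizontal axis (m, males, blue; f, females, orange). Points are pups, and black bars are the mean ± SD. Grik5 is the panel in which the female groups, with means from 245 to 275 CPM, lie above the male groups, with means from 138 to 185 CPM.

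The 66 libraries held 10644138 to 86206550 counts (median 20740650), and 2 pups had 2 libraries each, whose counts were summed. By the labels, pups of 11 libraries were dissected outside a window of 10.30 to 13.20 h. The study's methods give this window for the brains used for transcriptomics, so labels and methods differ here. All pups were kept in the main fits, and fits of the pups within the window were alternatives. Library titles were spelled in 2 forms, A with a capital pup letter in males or a separator after the group name in control females, and B without, and what the forms mark is not given in the sources used here. Of these, 9 of 10 control male libraries and all low-dose male libraries had form A. All 20 high-dose male libraries had form B, so form and high dose cannot be told apart in males. The 13 high-dose female libraries had no form assigned. The part of title form in comparisons that include them was therefore not tested. The defining markers of neurons and of hippocampal principal cells were detected in every group, except Fibcd1, which had no counts in any pup. Summed markers of adjoining tissue varied widely among pups, from 104 to 1205 CPM for thalamus, 81.1 to 756 CPM for neocortex and 745 to 4472 CPM for choroid plexus. In such bulk samples, fewer cells of a type and less RNA per cell cannot be told apart. P-values measure the spread between pups, some of which shared a litter.

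The first comparison was between the sexes in unexposed pups, where Grik5 differed most. Its level lay between 128 and 179 CPM (median 167) in the 9 control males and between 218 and 276 CPM (median 251) in the 10 control females. Every control female was above every control male. Grik5 was 1.54-fold higher in females (log2 difference 0.62, SE 0.06, adjusted p = 1.937e-07, edgeR quasi-likelihood test with Benjamini-Hochberg adjustment over all genes). It was the only subunit gene whose CPM ranges did not overlap, as was found for 5.68% of all genes (927 of 16324). The difference passed the test in every alternative and whichever pup was left out. Apart from single pups left out, it ranged from 0.52 on the log2 scale with the title form as a covariate to 0.64 without a filter on low counts. Among libraries of form A alone it was 0.58 (adjusted p = 0.0004937, edgeR). The sources used here do not say whether male and female libraries were prepared together. The study states that its female assay was repeated, and its mean RNA integrity was higher in females. Control male libraries held 10777044 to 18045602 counts and control female libraries 15405133 to 33399641. The part of depth and RNA quality in the sex differences was not tested.

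Grik4, the second of the high-affinity subunit genes, was 24.9% higher in control females (log2 0.32, SE 0.10, adjusted p = 0.01698, edgeR). Its values overlapped, with 26.7 to 39.5 CPM in males and up to 47.5 CPM in females. This call did not hold with the title form as a covariate (log2 0.26, adjusted p = 0.0823), in form A alone (0.22, 0.257), within the time window (0.33, 0.0629) or with the litter as a replicate block (0.28, adjusted p = 0.0618, limma-voom). The consensus correlation within litters was -0.225 in that last fit, and limma-voom was not run without the block. The part of the shared litters in the loss of the call was therefore not tested. Hence 2 of the 9 subunit genes were called, against 29.3% of all genes tested in this comparison, a share below that background. The other 7 had log2 differences between -0.14 (Gria3, an X-linked gene) and 0.05 (Gria1), and none passed the test. For Grik2 and Grik3 the 95% intervals of the log2 difference were -0.24 to 0.20 and -0.12 to 0.11. Marker genes of several cell types were called between the control sexes as well. The endothelial list had summed levels of 58.7 to 79.0 CPM in control males and 83.9 to 107 CPM in control females, and 1 of its 3 genes was called. Of the 4 markers of hippocampal principal cells with enough counts, 2 were called higher in control females, while their sums overlapped (105 to 182 CPM in males, 99.5 to 177 CPM in females). Called too were 2 of 5 neuronal markers, 1 of 5 of neocortex and 1 of 4 of interneurons (all higher in females), 2 higher and 1 lower of 6 of the oligodendrocyte lineage, and 1 lower of 4 of dividing cells. No marker of thalamus, choroid plexus, astrocytes, microglia or red blood cells was called. Of the 4 listed red blood cell genes, only 2 were found by symbol. The part of these lists in the Grik5 and Grik4 differences was not tested.

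Males and females from the same litter allowed a closer look at this difference. In 7 control litters with both sexes, Grik5 was higher in the female in all 7, by 0.30 to 0.89 on the log2 scale. Of all genes tested, 9.72% were higher in the female in every control litter. In the 11 high-dose litters Grik5 was again higher in the female in all 11, by 0.19 to 1.48, which held for 5.09% of all genes. Grik4 was higher in the female in 6 of the 7 control litters but in 7 of the 11 high-dose litters. Gria2 showed a different arrangement, with a higher level in the female in 2 of 7 control litters and in 0 of 11 high-dose litters. There, it was lower in the female by 0.19 to 1.27 log2 units, as 9.04% of all genes were lower in every high-dose litter. Grik3 was higher in the female in 4 of 7 control litters and in 10 of 11 high-dose litters.

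**Figure D2:**
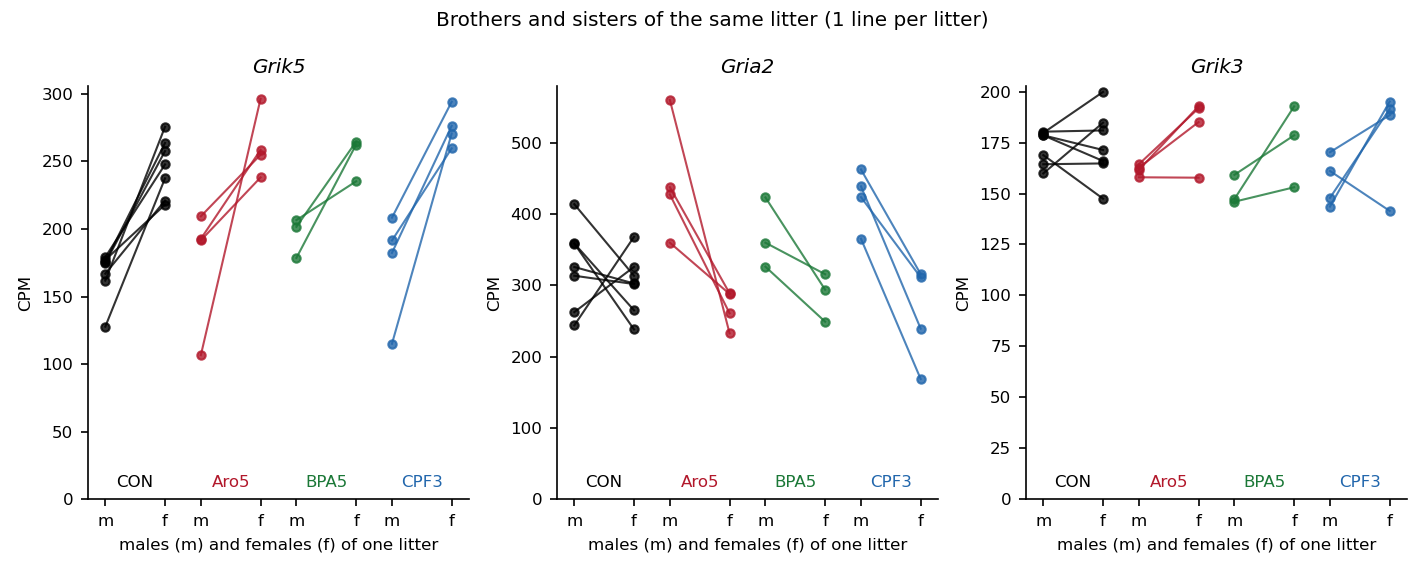
CPM of Grik5, Gria2 and Grik3 in males (m) and females (f) of 1 litter, joined by a line and grouped by exposure (CON, both control groups); where a litter gave 2 pups of a sex, their mean is drawn. For Grik5 all 18 lines rise from male to female, and for Gria2 all 11 lines of the high-dose litters fall.

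Within the exposed pups, females were compared with males of the same treatment, a comparison added after the data had been seen. These males all had title form B, and the females had no form assigned. The part of title form in these sex differences, and in the interactions of sex and treatment, was not tested. In Aro5 pups, Grik5 lay between 93.9 and 219 CPM (median 192) in the 6 males. The 5 Aro5 females had 234, 243, 255, 259 and 296 CPM, so that the sexes did not overlap. Grik5 was also the only subunit gene without overlap between the sexes in BPA5 and in CPF3, beside 12.3%, 7.90% and 5.77% of all genes in Aro5, BPA5 and CPF3. The log2 difference was 0.61 (SE 0.15, adjusted p = 0.001924) in Aro5, 0.55 (SE 0.15, 0.01865) in BPA5 and 0.61 (SE 0.15, 0.005769) in CPF3 (edgeR). The interaction of sex and treatment for Grik5 did not pass the test, with 95% intervals of -0.36 to 0.36 (Aro5), -0.43 to 0.31 (BPA5) and -0.37 to 0.37 (CPF3) on the log2 scale. The BPA5 call was lost within the time window (log2 0.56, adjusted p = 0.127) and when BPA5 male 4 or 5 or BPA5 female 2 or 4 was left out (adjusted p from 0.0515 to 0.0584, edgeR). Over all 13 groups, 39 of 41 males were below the lowest female (218 CPM), the exceptions being Aro5 male 1 with 219 CPM and CPF3 male 2 with 255 CPM.

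Gria2 differed between the sexes in Aro5 pups, where the males had 258, 360, 428, 438, 546 and 575 CPM and the females 230, 233, 288, 289 and 292 CPM. Aro5 male 1, the lowest and the pup dissected at 15.45 h, fell within the female range, and the other 5 males were above all females. The log2 difference, female minus male, was -0.68 (SE 0.16, adjusted p = 0.001314, edgeR), and it passed the test whichever pup was left out. In CPF3 pups it was -0.52 (SE 0.17, adjusted p = 0.03197), with 256 to 463 CPM in 7 males against 169, 239, 311 and 316 CPM in the females. The CPF3 call did not hold without CPF3 female 3, which had the lowest level (log2 -0.33, adjusted p = 0.271), nor without CPF3 female 4, BPA5 female 1 or CPF3 male 1, 3 or 7 (adjusted p from 0.0506 to 0.0816, edgeR). Over the other alternatives (edgeR, DESeq2 or limma-voom) the adjusted p of the CPF3 difference reached 0.2331. In BPA5 pups the difference was -0.23 (SE 0.16, adjusted p = 0.4627).

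Grik3 was higher in females in all 3 high-dose treatments, by 0.24 (SE 0.08, adjusted p = 0.02247) in Aro5, 0.29 (SE 0.08, 0.02429) in BPA5 and 0.27 (SE 0.08, 0.02646) in CPF3 (edgeR). In control pups its log2 difference between the sexes was -0.01. Each of the 3 calls was lost when single pups were left out, namely Aro5 female 2 or Aro5 male 5, BPA5 female 1 or 3, and CPF3 female 2 or 4 or CPF3 male 3 (adjusted p from 0.0508 to 0.128, edgeR). Over the other alternatives (edgeR, DESeq2 or limma-voom) the adjusted p reached 0.06085 in Aro5, 0.2578 in BPA5 and 0.03062 in CPF3. In Aro5 pups Gria3 (log2 -0.34, adjusted p = 0.03242), Grik2 (-0.45, 0.04382) and Grik4 (0.47, 0.02238) were also called. Leaving out 1 pup in turn ended the call in 8 of 52 fits for Gria3, in 30 for Grik2 and in 3 for Grik4. Over the other alternatives (edgeR, DESeq2 or limma-voom) their adjusted p reached 0.06795, 0.0826 and 0.0742. In all, 6 of the 9 genes were called in Aro5, 2 in BPA5 and 3 in CPF3, against 30.3%, 5.55% and 12.3% of all genes. The genes not called had log2 differences from -0.24 (Gria4) to -0.07 (Gria1) in Aro5, -0.23 (Gria2) to 0.39 (Grik4) in BPA5 and -0.17 (Gria4) to 0.17 (Gria1) in CPF3.

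The exposed males were then compared with control males, the question the study put to its high-dose groups. After adjustment over all genes none of the 9 subunit genes passed the test in Aro5, BPA5 or CPF3 males, with edgeR or with DESeq2. Of all genes, 0.195%, 0.189% and 0.159% were called. The study, by its own fit, reported many more genes at a false discovery rate under 0.05 in these groups, and the cause of that gap was not tested. At an unadjusted p under 0.05, 3 subunit genes differed in Aro5 males, 1 in BPA5 males and 1 in CPF3 males, and 11.8%, 9.10% and 12.6% of all genes did so. The CPM ranges of exposed and control males overlapped for every subunit gene, while 0.305%, 0.207% and 0.244% of all genes had no overlap. The log2 fold changes of the genes at a larger p lay between -0.09 (Grik4) and 0.19 (Gria3) in Aro5, -0.07 (Grik1) and 0.11 (Gria2) in BPA5, and -0.09 (Gria1) and 0.20 (Grik2) in CPF3.

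In Aro5 males the largest differences concerned Gria2 and Grik2, which encode the calcium-limiting AMPA subunit and the principal kainate subunit GluK2. Control males had 244 to 440 CPM of Gria2 (median 350), while the Aro5 males named above reached 575 CPM. The log2 fold change was 0.37 (SE 0.15, unadjusted p = 0.01819, adjusted p = 0.308, edgeR). Grik2 lay between 21.7 and 39.9 CPM (median 30.7) in control males and had 21.2, 30.8, 37.1, 41.6, 49.6 and 53.8 CPM in Aro5 males. Its log2 fold change was 0.36 (SE 0.17, unadjusted p = 0.0409, adjusted p = 0.4021). For both genes the ranges of control and Aro5 males overlapped. Aro5 male 1, dissected at 15.45 h, was lowest for both genes, and Aro5 males 5 and 6, from the same litter, were the 2 highest.

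The values of these 2 genes changed with the pups that were included. When pups outside the window of 10.30 to 13.20 h were left out, Gria2 rose by 0.64 on the log2 scale (adjusted p = 0.0315) and Grik2 by 0.64 (adjusted p = 0.0485, edgeR). In that fit 818 of 16484 genes were called, against 32 of 16393 in all pups, so calls became more frequent among genes in general. That comparison had 4 Aro5 and 6 control males, and the 4 Aro5 males include the litter pair. Among the pups left out were the control male with the most Gria2 (440 CPM) and the Aro5 male with the least (258 CPM). With the title form as a covariate the log2 values were 0.02 for Grik2 and 0.27 for Gria2. That fit separates form from dose by 1 control library of form B alone and called 0 genes of 16391 (edgeR, 169 at an unadjusted p under 0.05), so it says nothing on either gene. The interaction of sex and Aro5 for Gria2 was -0.55 (adjusted p = 0.4055, edgeR) in all pups and -0.86 (adjusted p = 0.0308) within the window, where 609 of 17452 genes were called against 17 of 17282. Aro5 males 5 and 6 also had the lowest Grik5 levels of the group, with 93.9 and 119 CPM against 192 to 219 CPM in the other 4. Summed neocortical markers lay between 394 and 639 CPM in Aro5 males and between 205 and 510 CPM in control males, 4 of the 5 at an unadjusted p under 0.05. The highest Gria2 levels were in the 2 Aro5 males with the lowest neocortical sums (394 and 420 CPM), and the part of this tissue in the result was not tested.

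**Figure D3:**
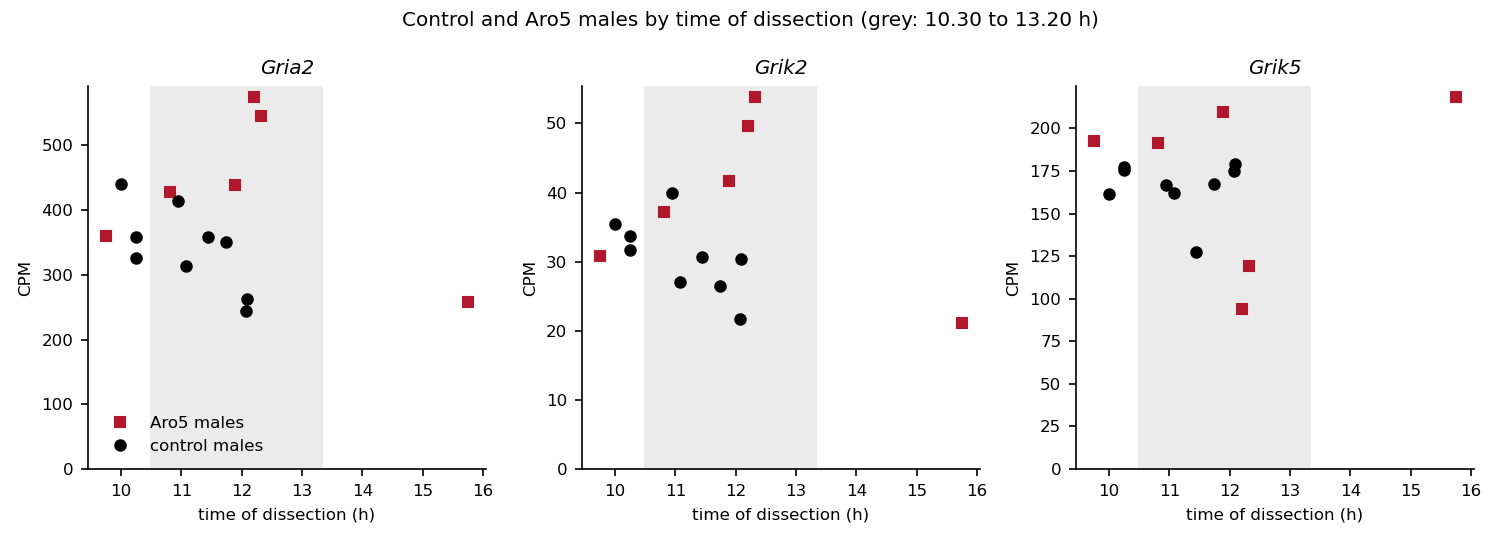
CPM of Gria2, Grik2 and Grik5 (linear axes from 0) against the time of dissection in 9 control males (black circles) and 6 Aro5 males (red squares), with the window of 10.30 to 13.20 h in grey. Within the window the 4 Aro5 males lie between 428 and 575 CPM of Gria2, above the control males of the window, and the 2 with the most Gria2 have the least Grik5. Outside the window a control male had 440 CPM of Gria2 and an Aro5 male 258 CPM.

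Grik3 was the subunit gene with the smallest p in BPA5 and CPF3 males. Control males had 160 to 184 CPM (median 179). BPA5 males had 146 to 161 CPM (median 150) and CPF3 males 135 to 170 CPM (median 148). All but 1 of the BPA5 males were below every control male. The log2 fold change was -0.18 in both (SE 0.05), with an unadjusted p = 0.001422 in BPA5 and 0.001499 in CPF3, and an adjusted p = 0.2249 and 0.1861 (edgeR). In Aro5 males it was -0.11 (SE 0.05, unadjusted p = 0.04121, adjusted p = 0.4038). The 3 treatments were set against the same 9 control males, so these values are not independent. Markers with an unadjusted p under 0.05 in the same comparisons were 3 of 5 of neocortex (higher), 2 of 4 of interneurons and 2 of 4 of microglia (lower) in CPF3 males, and 2 of neocortex (higher) and 1 of interneurons (lower) in BPA5 males. Interneuron markers summed to 202 to 330 CPM in CPF3, 221 to 342 CPM in BPA5 and 242 to 401 CPM in control males, and their part in the Grik3 values was not tested. In females Grik3 differed by 0.15, 0.13 and 0.12 in Aro5, BPA5 and CPF3. The interaction of sex and treatment was 0.26, 0.31 and 0.29, at unadjusted p = 0.01483, 0.003693 and 0.007382, and did not pass the test after adjustment (edgeR). Of the 9 genes, 2 had an unadjusted p under 0.05 for the interaction with Aro5 (8.92% of all genes), 1 with BPA5 (2.79%) and 1 with CPF3 (5.60%), and 0 passed after adjustment with edgeR or DESeq2, as did 0.0984%, 0.0405% and 0.0463% of all genes. Within the control females, libraries of form B exceeded those of form A by 0.17 in Grik3 (SE 0.08, unadjusted p = 0.05211, edgeR). In this fit 1 pup had a library of each form and entered as 2 samples. No subunit gene was called between the forms, against 1.43% of all genes, and 1, Grik5, had an unadjusted p under 0.05 (log2 0.15). In the alternative fits of the males, the title form as a covariate among them, Grik3 lay between -0.26 and -0.14 in BPA5. In CPF3 males it lay between -0.26 and -0.16, and neither passed after adjustment. The covariate fit separates form from dose by 1 control library of form B alone, so it cannot tell the part of the form in the male values.

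**Figure D4:**
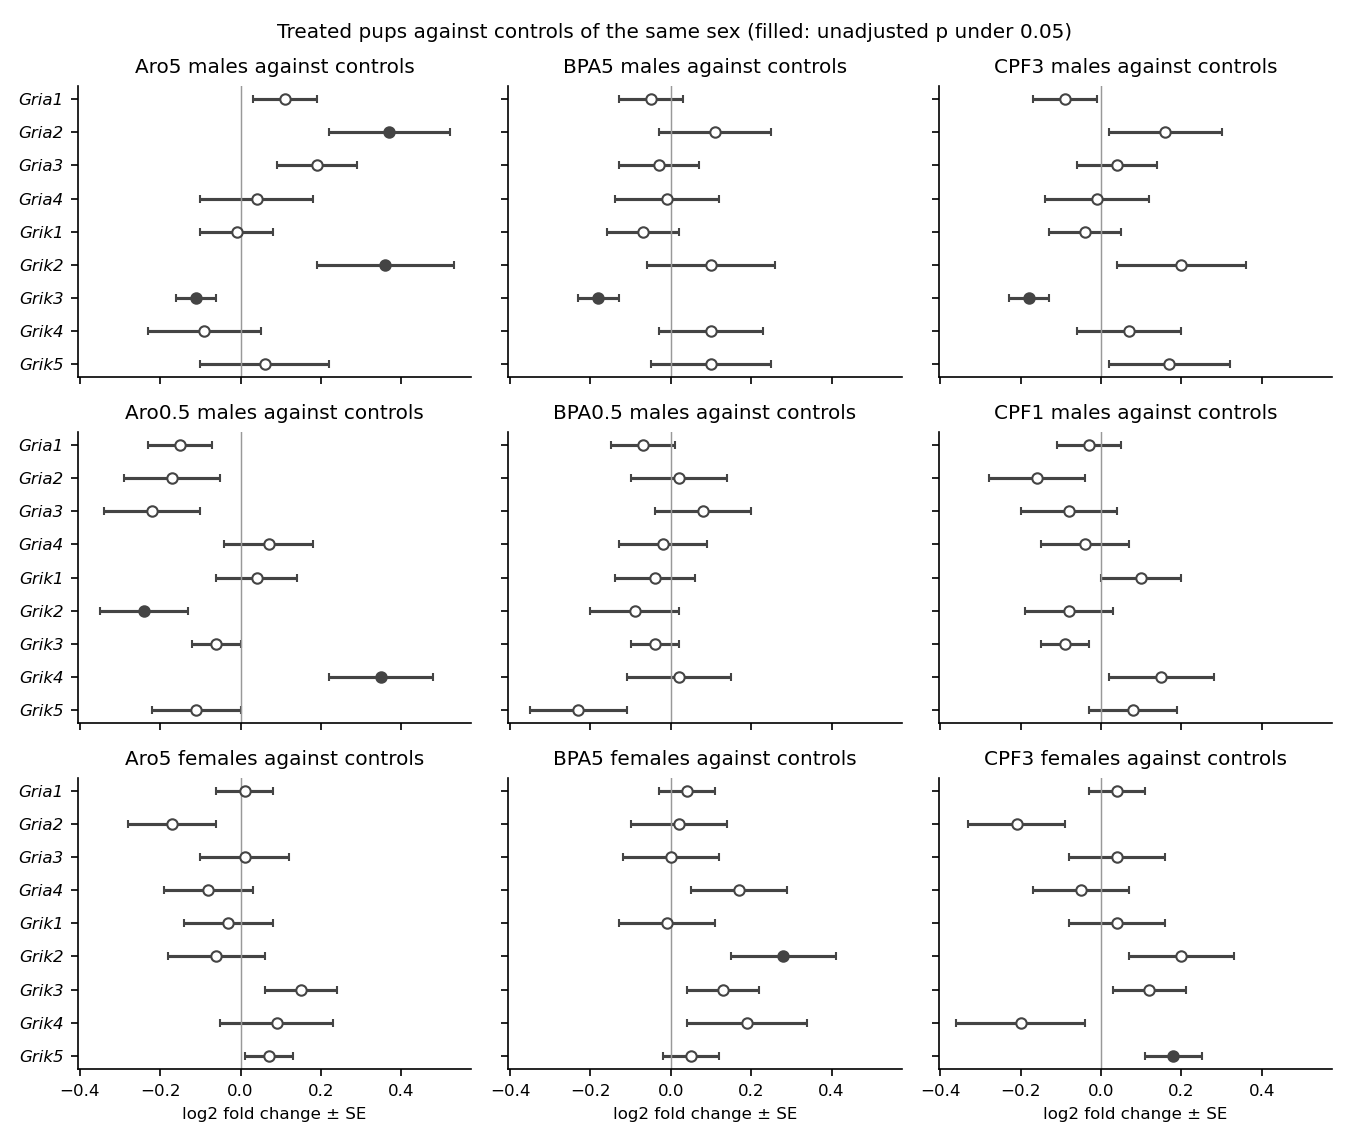
Log2 fold change ± SE of the 9 subunit genes in each treatment against controls of the same sex (edgeR). Filled points have an unadjusted p under 0.05; none passed the test after adjustment over all genes, and the values range from -0.24 for Grik2 in Aro0.5 males to 0.37 for Gria2 in Aro5 males.

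In the low-dose males no subunit gene passed the adjusted test with edgeR or DESeq2, against 0.124% of all genes in Aro0.5, 0.0434% in BPA0.5 and 0.00% in CPF1. At an unadjusted p under 0.05 there were 2 in Aro0.5 males (18.5% of all genes), and 0 in BPA0.5 (8.58%) and in CPF1 (2.00%). The ranges overlapped for all 9 genes, beside 1.53%, 0.508% and 0.0744% of all genes without overlap in Aro0.5, BPA0.5 and CPF1. Grik4 had 34.3, 35.5, 40.1 and 52.6 CPM in Aro0.5 males. Its log2 fold change was 0.35 (SE 0.13, unadjusted p = 0.01359, adjusted p = 0.1883), and without Aro0.5 male 4, the highest, it was 0.17. Grik2 had 21.8, 24.4, 24.6 and 28.9 CPM (log2 -0.24, SE 0.11, adjusted p = 0.2604). Thus Grik2 had opposite signs at the 2 doses of Aroclor 1254 in males, and neither value passed the test. In Aro0.5 males 3 of 5 thalamic markers were higher, and 2 of 5 of neocortex and 3 of 4 of interneurons lower, at an unadjusted p under 0.05, and their part in these values was not tested. The lowest Grik5 levels among low-dose males were in BPA0.5 pups, with 97.2, 125, 152 and 180 CPM (log2 -0.23, SE 0.12, adjusted p = 0.5978). The other log2 fold changes lay between -0.22 (Gria3) and 0.07 (Gria4) in Aro0.5, with Gria1, Gria2, Grik1, Grik3 and Grik5 between them. They ranged from -0.09 (Grik2) to 0.08 (Gria3) in BPA0.5 and, for all 9 genes, from -0.16 (Gria2) to 0.15 (Grik4) in CPF1.

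In high-dose females none of the 9 genes passed the adjusted test with edgeR or DESeq2, and no gene at all was called by edgeR (0.00% in each treatment). At an unadjusted p under 0.05 there was 1 subunit gene in BPA5 females (4.08% of all genes), 1 in CPF3 females (8.79%) and 0 in Aro5 females (3.23%). All 9 genes overlapped with control females, beside 0.0177%, 0.124% and 0.177% of all genes without overlap in Aro5, BPA5 and CPF3. Grik2 had 29.1, 32.8, 38.9 and 41.7 CPM in BPA5 females and 22.5 to 42.6 CPM in control females (log2 0.28, SE 0.13, adjusted p = 0.9254). Grik5 had 260, 271, 276 and 294 CPM in CPF3 females (log2 0.18, SE 0.07, unadjusted p = 0.01228, adjusted p = 0.4711). Gria2 had log2 fold changes of -0.17, 0.02 and -0.21 in Aro5, BPA5 and CPF3 females. Over all 9 genes the values ranged from -0.17 (Gria2) to 0.15 (Grik3) in Aro5, and over the genes other than those named at an unadjusted p, from -0.01 (Grik1) to 0.19 (Grik4) in BPA5 and from -0.21 (Gria2) to 0.20 (Grik2) in CPF3. Between the feeding and injection controls no subunit gene passed the test in males or in females, with edgeR or DESeq2, beside 0.0123% and 0.00% of all genes with edgeR. None had an unadjusted p under 0.05, against 1.10% and 4.70% of all genes, and the ranges of all 9 overlapped, beside 0.613% and 0.490% of all genes without overlap. The log2 differences, CONF minus CONSC, ranged from -0.10 (Grik5) to 0.10 (Grik1) in males and from -0.02 (Grik5) to 0.19 (Grik2) in females.

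The composition of each family was described by the share of its summed counts. Gria2 made up 44.6% to 53.9% of the AMPA subunit counts in the group means. It was highest in Aro5 males (53.9% ± 4.0, SD, n = 6) and lowest in CPF3 females (44.6% ± 6.5, SD, n = 4). In control pups the share was alike in the sexes, with 49.8% ± 3.1 (SD, n = 9) in males and 48.9% ± 2.4 (SD, n = 10) in females. Among the kainate subunits Grik5 took 47.8% ± 2.3 in control females and 37.7% ± 2.9 in control males. Grik3 took 32.3% ± 1.3 in control females and 39.5% ± 1.2 in control males, while its own CPM differed little between them. The shares within a family sum to a whole, so a higher Grik5 share lowers those of Grik3, Grik1 and Grik2 without any change in their levels.

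Across the 64 pups, after the mean of each group was removed from log2(CPM + 0.5), some subunit genes varied together. The description has no test, since pups share litters and libraries differ in depth. Pearson's r was 0.695 for Gria4 with Grik1, 0.691 for Gria2 with Grik2, 0.653 for Gria2 with Gria1 and 0.652 for Gria2 with Gria3. Many other genes were as close: by likeness to Gria2, Grik2 ranked 1209 and Gria3 1503 of 14701 genes, while Grik1 ranked 238 by likeness to Gria4, and Gria2 ranked 69 by likeness to Gria1. Grik5 ran against Gria2 (-0.566), Gria4 (-0.514) and Grik1 (-0.458), and had weak positive values with Grik4 (0.227) and Grik3 (0.119).

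**Figure D5:**
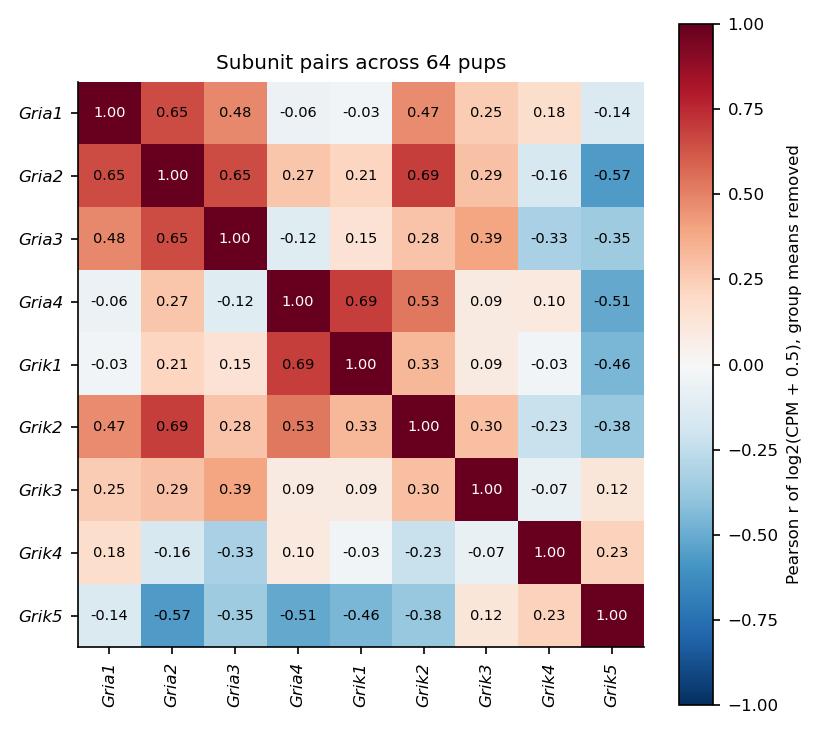
Pearson's r between subunit genes across 64 pups, from log2(CPM + 0.5) with group means removed, on a scale from -1 (blue) to 1 (red). The Grik5 row is negative against all AMPA subunits, down to -0.566 with Gria2, and Gria4 with Grik1 and Gria2 with Grik2 are the highest pairs, at 0.695 and 0.691.

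The genes most like each subunit in this measure were taken from 14701 genes. Gria2 was closest to Ttc14 (r = 0.927), Micu3 (0.926) and Ythdf3 (0.925), and Grik5 to Bai2 (0.973), LOC691056 (0.970) and Nckap5l (0.967). Grik4, whose transcript is known to be concentrated in CA3 pyramidal cells, was closest to Cabp7 (0.885), Otof (0.848) and Kcng2 (0.841). Gria4 was closest to Plcb4 (0.924), Inpp4b (0.913) and Shroom2 (0.900), and Gria3 to Dclk1 (0.910), Plcb1 (0.889) and Atp11b (0.874). Grik2 was closest to Fndc3b (0.874), LOC304725 (0.867) and Rapgef6 (0.866). For Gria1 the closest were Mfap3l (0.751), Itga8 (0.751) and the glial glutamate transporter Slc1a2 (0.746). Grik1 and Grik3 had less similar neighbours, Atl1 (0.709), LOC681177 (0.702) and Gria4 (0.695) for Grik1 and Plekha6 (0.649), Gpr137c (0.631) and Inpp4a (0.628) for Grik3. Several subunits also varied with the summed markers of a tissue or cell type. Gria4 varied with those of thalamus (r = 0.784), Grik4 with those of hippocampal principal cells (0.682) and Gria3 with those of neocortex (0.644). The principal cell sum was led by Prox1, with 156657 counts over all pups. Neurod2 had 49763, Wfs1 16122 and Zbtb20 4763.

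Genes that act on these receptors were followed as 6 lists with 49 genes, all of them tested. In control pups 14 were higher and 2 lower in females at an adjusted p under 0.05 (edgeR), beside 29.3% of all genes. The share of 29.3% counts both directions. In all, 10 of the 17 genes on a broad list of AMPA receptor auxiliary subunits and interacting proteins were among those higher. These included Cnih2, a cornichon that escorts the receptor to the surface (log2 0.61, SE 0.06, adjusted p = 9.514e-08), and the TARPs Cacng8 (0.59, SE 0.07), Cacng2 or stargazin (0.67, SE 0.10) and Cacng7 (0.40, SE 0.07). Prrt1, also known as SynDIG4, was higher by 0.65 (SE 0.10). The other 7 genes of that broad list and the 4 pore-forming AMPA subunit genes did not pass the test. The difference between these groups of genes was not tested. The median log2 difference was 0.28 over the 17 genes of the broad list and -0.02 over all genes. Cacng7 and Prrt1 also differed between the title forms within control females, by 0.29 and 0.46 (adjusted p = 0.02025 and 0.02852, edgeR). Females were then compared with males of the same treatment. At an adjusted p under 0.05 (edgeR), 15 of the 49 genes were higher and 4 lower in Aro5. There were 5 and 0 in BPA5, and 8 and 1 in CPF3, beside 30.3%, 5.55% and 12.3% of all genes. Cacng2, Cacng4, Cacng8 and Cnih2 were among the 5 with the smallest p each time, by 0.41 to 0.80. Beside them were Prrt1 in Aro5 (0.70) and BPA5 (0.56) and Cacng7 in CPF3 (0.53). The part of title form was not tested.

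Against controls, none of the 49 genes passed the adjusted test in any treatment of either sex (edgeR). At an unadjusted p under 0.05, 8 were higher and 0 lower in Aro5 males, 6 and 0 in BPA5 males, 1 and 2 in CPF3 males, 11 and 9 in Aro0.5 males, 0 and 5 in BPA0.5 males and 0 and 0 in CPF1 males. Over all genes the shares in these comparisons, both directions together, were 11.8%, 9.10%, 12.6%, 18.5%, 8.58% and 2.00%. In females there were 5, 2 and 3 higher and 0 lower in Aro5, BPA5 and CPF3, beside 3.23%, 4.08% and 8.79% of all genes. In Aro5 males the smallest p values belonged to Neto1, an auxiliary subunit of kainate receptors (log2 0.46, SE 0.16), Slc1a2 (0.71, SE 0.26) and Adarb1, the enzyme that edits Gria2 RNA (0.23, SE 0.09). In BPA5 males they belonged to Prrt1 (0.27, SE 0.10), C1ql2, a secreted protein that gathers kainate receptors at mossy fibre synapses (1.62, SE 0.63), and Shisa6 (0.68, SE 0.27). In CPF3 males they were Glul, glutamine synthetase (-0.25, SE 0.08), Shisa6 (0.71, SE 0.27) and the anchoring protein Akap5 (-0.71, SE 0.28). Adjusted p values of these 9 were between 0.2463 and 0.501.

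Of the low-dose groups, Aro0.5 males had the most such genes, led by the scaffold Dlg1 (-0.47, SE 0.12), Cacng7 (0.34, SE 0.09) and the pentraxin receptor Nptxr (0.35, SE 0.10), at adjusted p from 0.1149 to 0.1241 (edgeR). In BPA0.5 males the leading genes were Cacng4 (-0.20, SE 0.07), Grip2 (-0.26, SE 0.11) and Grid1 (-0.16, SE 0.07), and in CPF1 males Neto2 (-0.26, SE 0.13), Neto1 (-0.23, SE 0.15) and Dlg1 (-0.19, SE 0.12). In females the leading genes were Gripap1, Prrt1 and Cacng7 in Aro5 (0.13, 0.29 and 0.21), and Cacng4, Gsg1l and C1ql2 in BPA5 (0.16, 0.44 and 0.96). In CPF3 females they were Cacng4, Cacng7 and Neto2 (0.30, 0.23 and 0.20). Cacng4 in CPF3 females had the smallest unadjusted p of these, 6.792e-05, and an adjusted p = 0.3847 (edgeR).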

How the data were processed

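Gene counts were deposited per library; per the labels and the study's methods, the authors had aligned single-end reads of stranded, poly(A)-selected RNA with STAR to Rnor_6.0 and counted them per gene with featureCounts. The submitters' processing notes also list kallisto, without its role. The labels name a NovaSeq and the methods a HiSeq sequencer. The counts were used as deposited, and those of 2 libraries from 1 pup were summed, giving 64 pups from 66 libraries. Groups, sex, litter and time came from the labels.

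Differences were tested with edgeR 4.0.16 in R 4.3.3 (TMM, filterByExpr, quasi-likelihood F test), with Benjamini-Hochberg adjustment over all genes and a threshold of 0.05. SE is the absolute log2 fold change divided by the root of F. High-dose males, low-dose males, females and controls were fitted separately, and the interaction of sex and treatment in 1 fit of 52 pups. CPM used library totals. DESeq2 1.42.0, other normalizations and filters, title forms, routes, times and pups left out were alternatives, as was limma-voom 3.58.1 with the litter as a replicate block. Labels name the litters shared by males and females; in 20 such pairs the correlation of deviations from group means was -0.53 to 0.42 (median -0.17), over 0.1 in 5. The 2 libraries of a pup differed by a chi-square per gene of 4.09 (CONF female) and 31.7 (CONF male) and were counted as 1 sample. Fits by title form were the exception, since they took single libraries. Pairs of different pups of 1 group had a median of 18.6 and a lowest value of 2.87. Both same-pup pairs set form A against form B, and the labels give the female pair different dissection times. That each pair is 1 pup was taken from the pup names and was not tested.

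All 9 members were tested in each comparison; those with an unadjusted p under 0.05 are named with their values and the others by their range. Of the 49 pathway genes, those with an adjusted p under 0.05 were named (5 with the smallest p if more), otherwise the 3 with the smallest p. In the interactions of sex and treatment, and between the feeding and injection controls, none passed the adjusted test and none is named. For each member the 3 genes with the highest r were named. Members and lists were chosen with earlier results of these data known. The scripts were tested on simulated data.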

Additional observations from a re-analysis of the deposited data

Results flagged for a closer look

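In 10 of 117 gene and group combinations, 1 pup lay apart from the rest of its group by Dixon's test, which chance alone does in about 1 in 20 groups. Gria1 had 91.7 CPM in Aro5 male 1, dissected at 15.45 h, against 113 to 125 CPM in the other 5, and 111 CPM in BPA0.5 male 4 against 98.4 to 99.4 CPM. Gria2 had 258 CPM in BPA0.5 male 3 (others 358 to 376 CPM). Gria3 had 71.9 CPM in CONSC female 3 (others 95.6 to 99.8 CPM), and Gria4 72.2 CPM in CPF3 female 2 (others 107 to 115 CPM). Grik1 had 42.7 CPM in Aro0.5 male 3 (others 31.4 to 32.8 CPM) and 38.1 CPM in BPA5 female 1 (others 30.6 to 31.1 CPM). Grik3 had 141 CPM in CPF3 female 3 (others 188 to 195 CPM), the pup that also had the lowest Gria2. Grik4 had 44.1 CPM in CPF3 male 6 (others 30.2 to 36.0 CPM), and Grik5 128 CPM in CONF male 2 (others 167 to 175 CPM).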

How the results depend on the processing

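The number of subunit genes called changed under few alternatives. In control females against control males it was 2, and it was 1 with the title form as a covariate, in form A alone, within the time window and with the litter as a replicate block; Grik4 was lost each time. It stayed at 2 whichever pup was left out. Within the time window 2 genes were called in Aro5 males and 1 (Gria2) in the interaction of sex and Aro5, against 0 in all pups, while calls over all genes went from 32 to 818 and from 17 to 609. Females against males of 1 treatment gave, when 1 pup was left out, 3 to 6 genes for Aro5, between 1 and 2 for BPA5, and 1 to 3 for CPF3, and 0 in BPA5 within the time window. The litter block changed 1 further call, that of Grik2 between Aro5 females and males (adjusted p = 0.0731, limma-voom). The cause of these changes was not tested. Of 117 counts under other alternatives 110 were within 1.5 times of the reported count, and no log2 fold change of those with an unadjusted p under 0.05 changed sign in 175 values, nor in 1103 with 1 pup left out. Every subunit gene had at least 267 counts in each pup, and groups of 4 to 10 pups limit what could be called.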

Other observations

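Beside the markers named with the results, further cell type markers varied with the subunit genes across the 64 pups, with group means removed. Grik1 varied with the summed thalamic markers (r = 0.526), and both Gria4 (-0.585) and Grik1 (-0.539) ran against those of choroid plexus. Grik5 (0.625) and Grik4 (0.534) varied with the endothelial markers, and Gria2 (-0.579) and Gria3 (-0.637) ran against them. Grik2 ran against the neuronal markers (-0.631). The thalamic markers summed to 104 to 980 CPM in the 6 Aro5 males and to 413 to 1165 CPM in the 9 control males. These are descriptions across pups that share litters.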
